A study of Caenorhabditis elegans with 2 samples.

Results

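The genes described are the CDC-48 ATPase and its ubiquitin-binding cofactors in Caenorhabditis elegans: cdc-48.1, cdc-48.2, ufd-1, npl-4.1 and npl-4.2, 5 of the 19985 annotated protein-coding genes. They were chosen by name and with peak values of these data in view, cdc-48.1 among them because it held the strongest peak, so their ranks are a description and carry no test. For each gene, every peak summit from 2000 bp upstream of the 5′ end to the gene end was collected. The peaks come from chromatin immunoprecipitation followed by sequencing (ChIP-seq) of the product of C34F6.9 fused to eGFP, a green fluorescent protein. The material was whole second-stage (L2) larvae of strain OP324, of pooled sex, in 2 biological replicates that form 1 group. The strain carries the tagged gene on the transgene wgIs324 and the mutation unc-119(ed3) on chromosome III. Whole larvae mix all cell types, so the peaks are not assigned to any tissue. Only peak lists were analysed, without counts of reads, so sequencing depth is unknown and peak signals are given with no error of their own.

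CDC-48, called p97 or VCP in mammals, is an ATPase of the AAA family that forms a hexameric ring and pulls ubiquitinated proteins out of complexes and membranes, often before the proteasome degrades them. UFD-1 and NPL-4 form a heterodimer that binds ubiquitin chains and brings such proteins to the ring. In worms this machine is known for degradation of proteins from the endoplasmic reticulum (ER) and for removal of replication proteins from chromatin. The genes cdc-48.1 and cdc-48.2 encode closely related forms of the ATPase, and npl-4.1 and npl-4.2 are near-identical copies.

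The ATPase genes had peaks in the optimal list, and the cofactor genes of this set did not. That list holds the peaks that the authors kept at their irreproducible discovery rate (IDR) threshold. It is the 19.0% of the 30000 pooled regions with the highest signal. The contrast rests on ufd-1, because most of the sequence at npl-4.1 and npl-4.2 is repeated and their empty windows do not show absence. It does not extend to cofactors in general, since 6 of 14 other CDC-48 cofactor genes, described further on, had optimal peaks. By the window above, 2 of the 5 genes had an optimal summit, against 27.4% of all protein-coding genes. Within 500 bp of a 5′ end the same 2 genes, cdc-48.1 and cdc-48.2, had one, against 17.0% of coding genes. The windows ran from 3483 to 5372 bp, against a median of 4026 bp over all coding genes. In the full lists, which reach down to background, 3 of the 5 genes had a summit in the window (cdc-48.1, cdc-48.2 and ufd-1), against 56.1% of coding genes in the pooled list, 56.7% in replicate 1 and 61.3% in replicate 2. With so few genes chosen by their peaks, nothing is read from these shares. Across the set the signal ran from the top of the list at cdc-48.1, through a pair of middle-ranked peaks at cdc-48.2, to a sub-threshold region at ufd-1. The npl-4.1 and npl-4.2 windows held no region and are left out of this order because of their repeated sequence.

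The sequences under the peaks of the ATPase genes are shown because these are the optimal peaks of the set. Each is read 5′ to 3′ on the gene's own strand from the RefSeq copy of the WBcel235 assembly, which is the ce11 build of the peak lists. The capitals mark matches to the motifs described further on, and those at the start of the proximal cdc-48.2 sequence are the end of a match cut by its edge. The first lies at chrII:10563409-10563708 on the minus strand, and its 300 bases are centred on the cdc-48.1 summit. The other sequences are 150 bases each on the plus strand, at chrII:8137402-8137551 and chrII:8138124-8138273, centred on the distal and the proximal summit of cdc-48.2.
cdc-48.1: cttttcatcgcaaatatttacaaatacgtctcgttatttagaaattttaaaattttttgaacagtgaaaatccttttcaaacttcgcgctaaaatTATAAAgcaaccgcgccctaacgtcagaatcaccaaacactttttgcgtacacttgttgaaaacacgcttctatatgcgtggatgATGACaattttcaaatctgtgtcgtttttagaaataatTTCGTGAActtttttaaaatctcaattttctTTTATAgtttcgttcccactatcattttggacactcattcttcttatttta
cdc-48.2, distal: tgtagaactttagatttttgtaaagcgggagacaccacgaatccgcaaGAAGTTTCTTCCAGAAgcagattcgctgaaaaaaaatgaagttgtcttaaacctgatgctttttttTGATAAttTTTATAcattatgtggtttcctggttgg
cdc-48.2, proximal: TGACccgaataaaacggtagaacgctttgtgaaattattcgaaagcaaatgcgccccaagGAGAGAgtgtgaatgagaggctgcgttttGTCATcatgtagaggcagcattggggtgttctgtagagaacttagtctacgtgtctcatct

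The gene cdc-48.1 (WBGene00007352, chrII:10560036-10563407, minus strand) had a single optimal peak, at chrII:10563385-10563761. Its summit at 10563559 lay 152 bp upstream of the only annotated 5′ end, in the 704 bp between cdc-48.1 and the upstream gene C06A1.6, which is transcribed in the same direction. In the lists of replicate 1 and replicate 2 the summit lay at 10563561 and at 10563550, which is 2 and 9 bp from the pooled summit. The signal, the authors' own value per peak and comparable only within a list, was 692 in replicate 1 and 500.1 in replicate 2, and 1189 in the pooled list. Each of these was the highest of its list of 30000 regions. The margin over the next peak was small, at 1.02-fold in replicate 1, 1.09-fold in replicate 2 and 1.09-fold in the pooled list. The signal was 43.1 times that of the median region in replicate 1, 45.1 times in replicate 2 and 50.2 times in the pooled list. These medians are taken over lists that reach down to background. Against the median optimal peak the pooled signal was 10.5 times as high.

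In both replicates the cdc-48.1 summit lay within 9 bp of the pooled summit, which is itself derived from both. The larger distance, of 9 bp, compares with a median of 24 bp over the 5372 optimal peaks matched in both replicates. Those peaks are of any rank, and 21.4% of them were at or under 9 bp. The next optimal summit lay 4270 bp away, past the 3′ end of the gene, and the next summit in the pooled list 3930 bp away, on the upstream side. Over all pooled summits the median distance to the nearest neighbour was 837 bp, and 5.60% were at least as isolated. Over all optimal summits the median was 3294 bp, and 43.6% were at least as far from the next. Part of the sequence upstream of cdc-48.1 is repeated. Of the 32-base words starting in its window, 90.3% were found once in the genome, against a median of 99.2% over coding genes. In the 100 bp that begin 1700 bp upstream the share was 0%. Whether this bears on the distance to the next summit was not tested. No pooled summit fell in the 3372 bp of the gene itself. The replicate lists placed weak regions there at different positions, of rank 25002 in replicate 1 and of ranks 16624 and 20285 in replicate 2, and none of these lay within 100 bp of a region in the other replicate. The small nucleolar RNA gene C06A1.9, inside cdc-48.1, has its 5′ end 495 bp from the main summit, and C06A1.8, also inside, lies 2625 bp from it.

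The gene cdc-48.2 (WBGene00008053, chrII:8138496-8141230, plus strand) had 2 optimal peaks, both in the 1577 bp that separate it from the divergent gene ctns-1, which encodes a homologue of the lysosomal cystine transporter cystinosin. The distal summit, at 8137477, lay 1019 bp upstream of the cdc-48.2 5′ end and 559 bp from that of ctns-1. The proximal summit, at 8138199, lay 297 bp upstream of cdc-48.2 and 1281 bp from ctns-1. In the pooled list they had almost equal signals of 89.5 (rank 3630) and 87.6 (rank 3709).

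The order of these peaks turned round between replicates. The distal summit had a signal of 52.5 in replicate 1 and 36.1 in replicate 2, and the proximal summit 43.5 in replicate 1 and 43.9 in replicate 2. By rank within each list, the distal summit was at 3782 in replicate 1 and 3861 in replicate 2, while the proximal summit was at 4614 in replicate 1 and 3069 in replicate 2. The rank difference between replicates was thus 79 for the distal and 1545 for the proximal summit, against a median of 1117 and quartiles of 500 and 1999 for the 933 matched optimal peaks of rank 3200 to 4200. Which of the summits was higher could therefore not be told beyond the spread between replicates. A weaker pooled region between them, at 8137683, had rank 18125 and a counterpart within 100 bp only in replicate 2, at rank 11456. Past the 3′ end of cdc-48.2 the next pooled summit, 2265 bp away and upstream of the overlapping opposite-strand gene ints-11, ranked higher than either, at 852 in replicate 1, 995 in replicate 2 and 887 in the pool.

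Between the ATPase copies the difference in highest signal was of similar size in both replicates. The highest cdc-48.1 signal was 13.2 times the highest cdc-48.2 signal in replicate 1 and 11.4 times in replicate 2. The cdc-48.2 value was that of the distal summit in replicate 1 (52.5) and of the proximal summit in replicate 2 (43.9). The spread of the ratio therefore mixes different sites. On the log2 scale the ratio was 3.61 ± 0.15 (SD, n = 2), and in the pooled list it was 13.3-fold. Because cdc-48.1 was chosen for holding the strongest peak, its higher signal was fixed in advance and the ratio is a description. Both copies sit in sequence that occurs once in the genome at their summits. The coding sequences are 79.1% identical over 2379 aligned bases. Upstream of the genes the alignment depended on the length taken: the best alignment of the 500 bp upstream spanned 23 bases, and that of the 100 bp upstream spanned 67 bases, of which 52 were identical (77.6%). All 32-base words (32-mers) starting in the 400 bp around each of the optimal summits of both genes were found once in the genome.

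**Figure D1:**
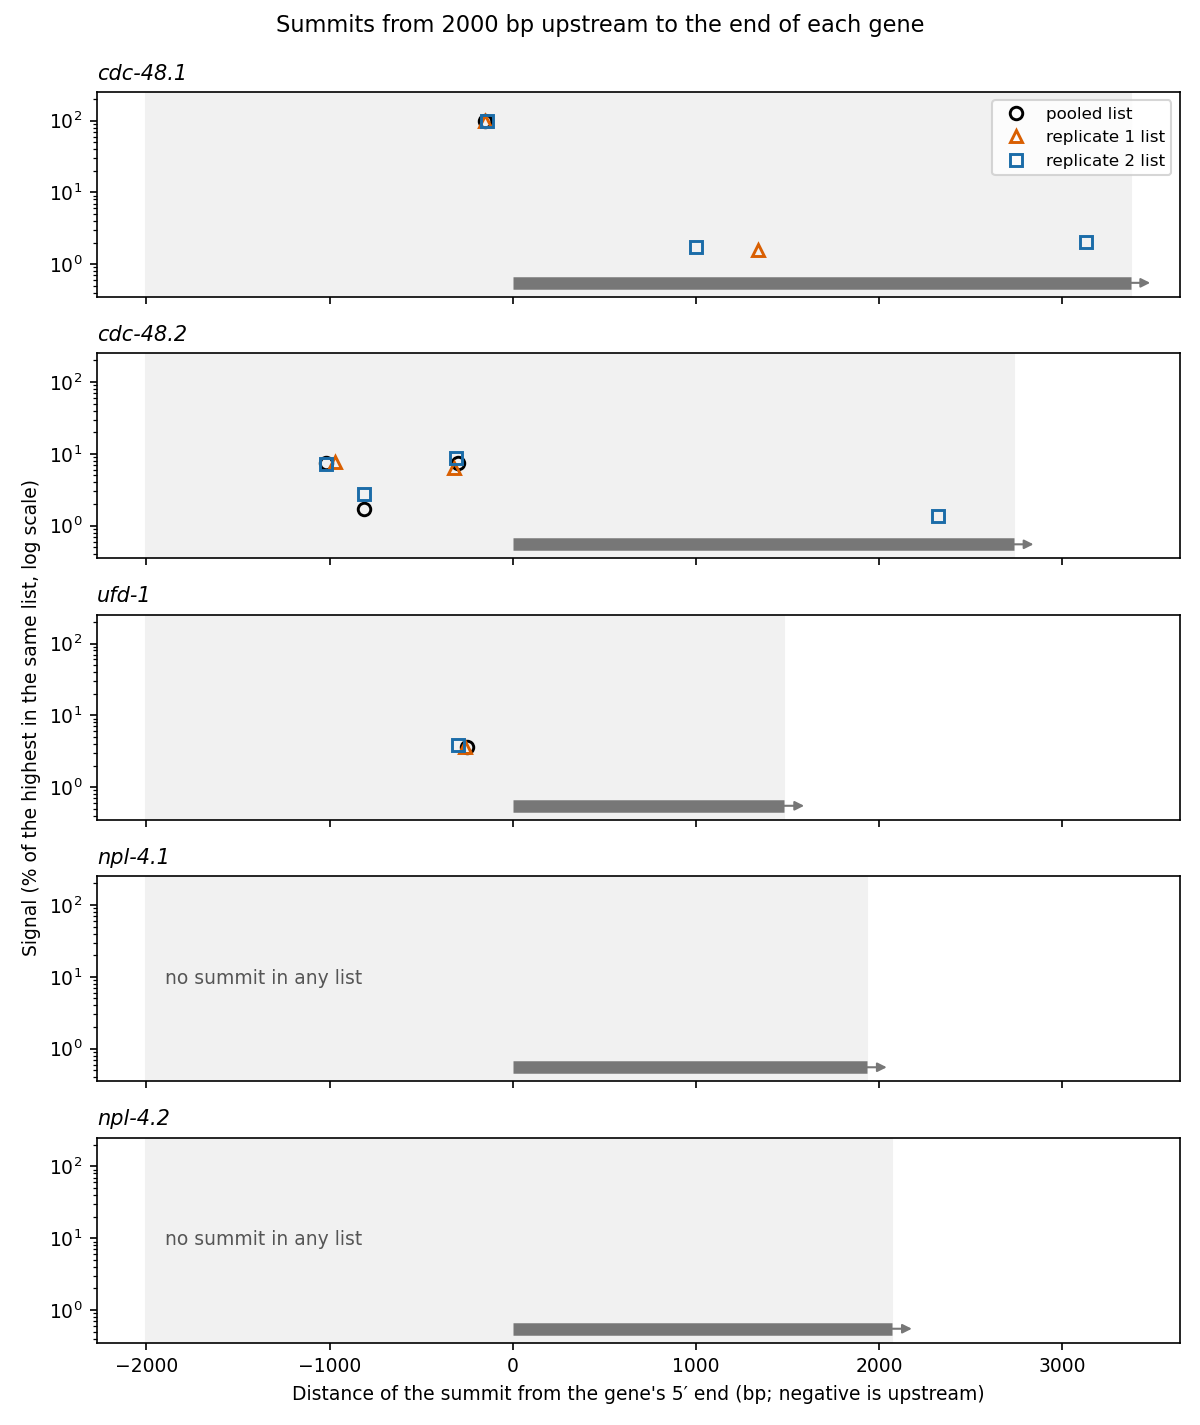
Summits from 2000 bp upstream to the end of each of the 5 genes, by distance from the gene's 5′ end (bp), with the signal as a percentage of the highest in the same list on a log scale. Circles are the pooled list, triangles replicate 1 and squares replicate 2, the grey bar is the gene and the shaded area the window searched. The main cdc-48.1 summit lies at the top in all 3 lists, 152, 154 and 143 bp upstream. The lower symbols of that panel are weak replicate regions inside the gene. The panels of npl-4.1 and npl-4.2 are empty.

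The cofactor gene ufd-1 (WBGene00006733, chrIV:12329408-12330890, minus strand) had no optimal peak but had a weaker region at the same place in every full list. The pooled region at chrIV:12330942-12331337 had its summit at 12331140, 250 bp upstream of the more distal of 2 annotated 5′ ends. Its signal was 42.4 (rank 7698, −log10 q of 1.90), against 57.3 for the weakest optimal peak. Its signal was 25.1 in replicate 1 (rank 8463) and 19.1 in replicate 2 (rank 7643), with summits 13 and 48 bp from the pooled summit. Both replicates thus placed it below the size of the optimal list. The summit lies inside an exon of the upstream gene F19B6.1, outside its coding sequence, 164 bp from the annotated 3′ end. F19B6.1 is transcribed in the same direction and ends 85 bp before ufd-1 begins, so a position upstream of ufd-1 is also one at the end of F19B6.1. Among coding genes, 36.9% had a pooled summit within 500 bp of a 5′ end.

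The members nearest to either side of the list's limit were cdc-48.2, inside it at ranks 3630 and 3709, and ufd-1, outside it at rank 7698. In position, the summit nearest outside a window in any list was a replicate 1 region of rank 10903, 3 bp beyond the upstream limit of cdc-48.2. Among optimal summits it was the peak 404 bp past the end of npl-4.1, and the farthest upstream inside a window was the distal cdc-48.2 peak.

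**Figure D2:**
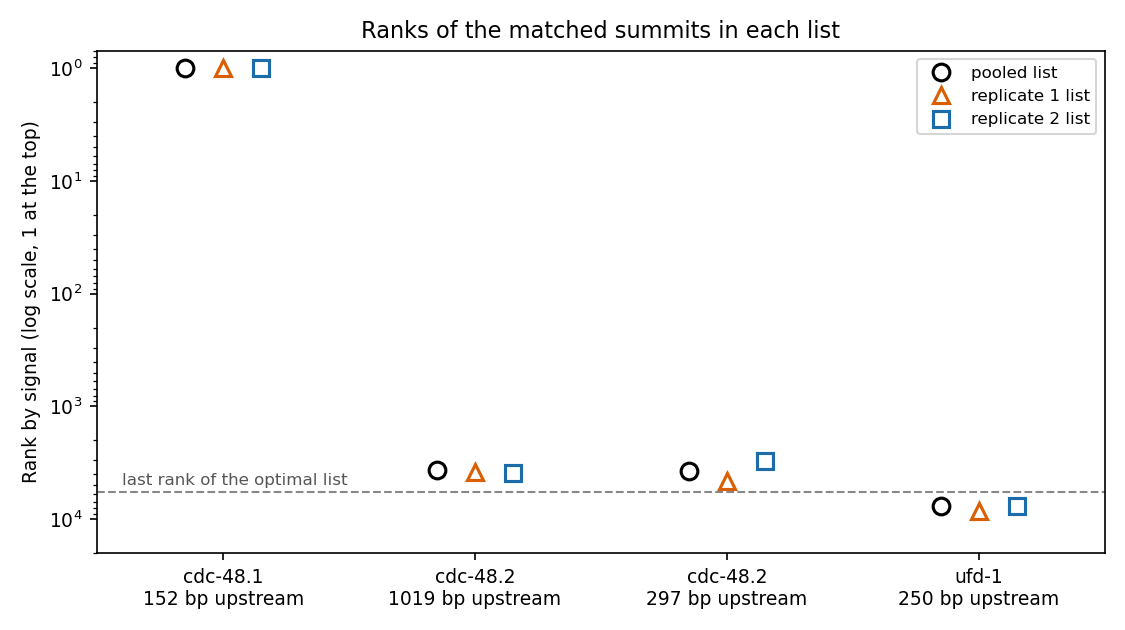
Rank by signal (log scale, 1 at the top) of the 4 member summits matched within 100 bp in both replicates, in the pooled list (circles), replicate 1 (triangles) and replicate 2 (squares). The dashed line is the last rank of the optimal list. The cdc-48.1 summit is at rank 1 in all 3 lists, both cdc-48.2 summits lie above the line and ufd-1 lies below it in all 3.

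No list placed a summit at npl-4.1 (WBGene00019120, chrII:5631351-5633284) or npl-4.2 (WBGene00019121, chrII:5622889-5624959). Both lie on the plus strand, with 8462 bp between their 5′ ends. Over all coding genes, 30.9% had no summit in the pooled list or in either replicate list by the same window, so an empty window is common. At these genes, however, most of the sequence occurs more than once in the genome. The genes are 99.2% identical over 1914 aligned bases, and the 500 bp upstream of each are identical at all 500 positions. The last 100 bases before the 5′ end are printed to show what the copies share. They read the same at chrII:5631251-5631350 for npl-4.1 and at chrII:5622789-5622888 for npl-4.2, on the plus strand, with no capitals because no position differs.
npl-4.1 and npl-4.2, upstream: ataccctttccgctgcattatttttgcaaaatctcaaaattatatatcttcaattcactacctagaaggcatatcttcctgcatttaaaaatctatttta

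Only 3.40% of the 32-mers that start in the 500 bp upstream of npl-4.1 or npl-4.2 were found once in the genome, against 100% upstream of cdc-48.1, cdc-48.2 and ufd-1. Over the whole window the share was 24.1% for npl-4.1 and 25.6% for npl-4.2, against a median of 99.2% over coding genes. Each window holds an unbroken stretch of 1344 starts, from 15 bp inside the gene, with no 32-mer of its own. In the 400 bp around either npl-4 5′ end the share was 8.0%, and at the 5′ end of the divergent neighbour of npl-4.2, the translation initiation factor gene eif-3.L, it was 0%.

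Regions were rarely called in sequence of this kind anywhere in the genome. Of the 30000 pooled summits, 2 had a share of 8.0% or less in the 400 bp around them, and of the optimal summits 0 had, while 2.91% of all consecutive 400 bp stretches of the nuclear genome did. A window with a share at or below that of npl-4.2 was found for 277 coding genes, and 267 of these (96.4%) had no summit in any full list. The authors' file listing names signal tracks of unique reads, but the sources used here do not say how the peak calls treated reads that match several places. An empty window at npl-4.1 and npl-4.2 thus does not show that the protein was absent there, and whether the repeated sequence accounts for it was not tested.

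The nearest optimal peak to either gene lay just outside the repeated stretch at npl-4.1. Its summit at 5633688 was 404 bp past the end of npl-4.1 and 8729 bp past the end of npl-4.2. It ranked 2353 in replicate 1, 2311 in replicate 2 and 2365 in the pooled list, higher than either cdc-48.2 peak. Around it 98.8% of the 32-mers were found once. It falls between the 3′ ends of npl-4.1 and of the opposite-strand gene F59E12.8, and the next pooled summit on the other side of both npl-4 genes was 15664 bp away. Gaps at least that long made up 3.92% of all gaps between neighbouring pooled summits, whose median was 1383 bp. Of the 32-mers in this gap, 53.4% were found once. Weaker regions lay nearer to npl-4.2, upstream of its window. They were 2865 bp beyond it in the pooled list (rank 27345), 1261 bp in replicate 1 (rank 9993) and 3676 bp in replicate 2 (rank 27409).

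**Figure D3:**
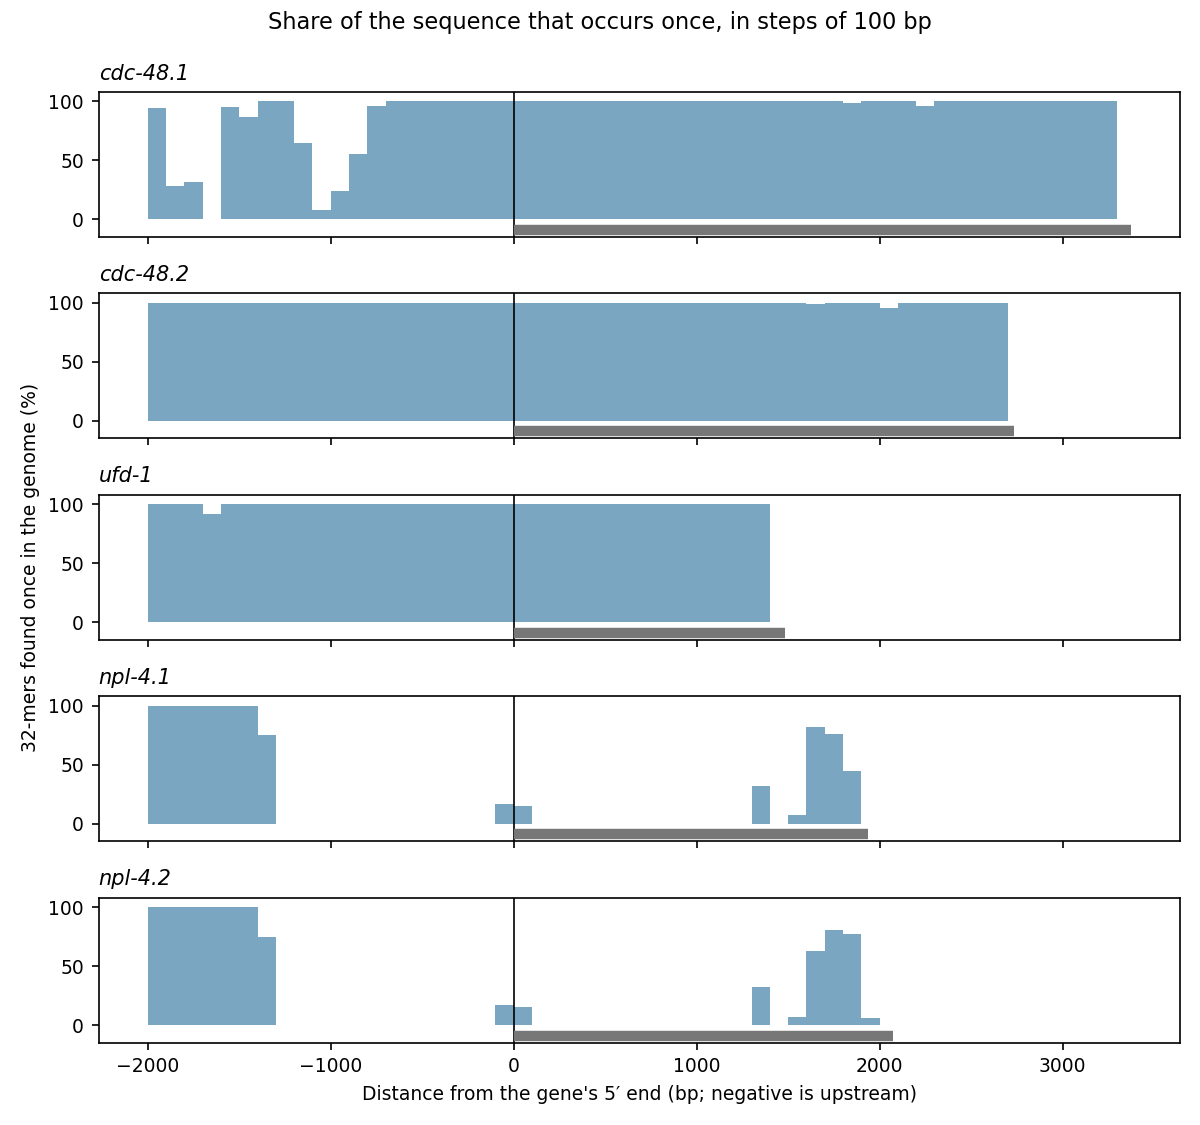
Percentage of 32-mers found once in the genome, in steps of 100 bp, by distance from the 5′ end of each gene (bp), where grey bars are the genes. The share is near 100% around the 5′ ends of cdc-48.1, cdc-48.2 and ufd-1 and at or under 20% in every step from about 1300 bp upstream of npl-4.1 and npl-4.2 to about as far inside the genes.

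In the 300 bp centred on each summit, the GC content was 31.0% at cdc-48.1, 31.7% at the distal and 38.3% at the proximal cdc-48.2 summit and 35.7% at ufd-1. All 4 were below the median of 39.3% over optimal summits and above its 5th percentile of 29.7%. Of all optimal windows, 92.6% had at least the GC content of the cdc-48.1 window, 90.4% that of the distal and 55.8% that of the proximal cdc-48.2 window, and 71.0% that of the ufd-1 window. The proximal cdc-48.2 window was thus close to the median.

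In these windows 10 short motifs were searched on both strands. The cdc-48.1 window held TTCNNGAA, an arrangement of inverted heat shock half-sites, at 73 bp downstream of the summit, TATAAA 51 bp upstream and 103 bp downstream, and GTCAT, the core bound by the stress regulator SKN-1, 33 bp downstream. The shares of all optimal windows of the same length that held them were 14.4% for TTCNNGAA, 24.8% for TATAAA and 37.1% for GTCAT. The distal cdc-48.2 window held GAANNTTC 23 bp upstream of the summit and TTCNNGAA 15 bp upstream, so that heat shock half-site pairs of both arrangements adjoin, and 3.55% of optimal windows held both. The sequence TGATAA, of the kind bound by factors of the ELT family, lay 42 bp downstream and was found in 19.0% of windows. There was also a TATAAA at 50 bp downstream. The proximal window held GAGAGA 12 bp upstream of the summit, a repeat found in 51.5% of windows, and GTCAT 74 bp upstream and 16 bp downstream. The ufd-1 window held CACGTG, an E-box, 110 bp downstream, found in 9.54% of windows, and TATAAA 141 bp upstream. Directions are along the gene, and distances run to the middle of the match. The core of the unfolded protein response element, TGACGTG, had no match in the 4 windows, and neither had the E2F-like GCGGGAA nor the promoter motif written GCGTCTC. No motif was found in all 4 windows. Such matches are descriptions of the letters and do not show a site in use.

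Other genes that work with CDC-48 had optimal peaks at their promoters in 6 of 14 cases, with a median rank of 1000, against 17.0% of coding genes and a median rank of 2040 over those with a peak. The highest-ranked was ufd-3, which encodes a ubiquitin-binding CDC-48 cofactor, at rank 324 (258 in replicate 1 and 549 in replicate 2). Next were ufd-2, a ubiquitin chain elongation factor, at rank 632 (686 and 646), rad-23, a shuttle factor for the proteasome, at rank 788 (821 and 937), and ubxn-2, a UBX-domain cofactor, at rank 1212 (1086 and 1766). All 4 ranked between cdc-48.1 and the cdc-48.2 peaks in the pooled list and in both replicates. The remaining peaks were at ubxn-1 and chn-1, which encodes the ubiquitin ligase that works with UFD-2. When each summit counted for its closest 5′ end alone, rad-23 and ubxn-1 dropped out and the count was 4. The peaks named here for rad-23 and ubxn-1 are thus not assigned to these genes alone. Below the limit, ubxn-4 had a region of rank 7983 and ubxn-3 of rank 29415. The other 6, ubxn-5, ubxn-6, png-1, atx-3, vms-1 and ubql-1, had no pooled region within 500 bp.

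Genes of ER-associated degradation, a process that depends on CDC-48, had optimal peaks in 2 of the 8 cases matched by name, against 17.0% of coding genes, a share near the background for so short a list. These were rnf-121 at rank 1385 (1532 and 1247 in the replicates) and sel-1, a component of the ER ubiquitin ligase complex, at rank 3023. The sel-1 region ranked 2294 in replicate 1 and 6540 in replicate 2, below the size of the optimal list there. Without replicate 1 the count was 1 (rnf-121). When each summit counted for its closest 5′ end alone, rnf-121 dropped out and the count was again 1 (sel-1). Below the limit, the membrane ubiquitin ligase genes marc-6 and rnf-5 had regions of rank 18900 and 27646. The ubiquitin ligase genes sel-11 and hrdl-1 and the derlin genes cup-2 and der-2 had no pooled region within 500 bp.

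Other ATPases of the AAA family had optimal peaks in 9 of 16 cases, with a median rank of 661, against 17.0% of coding genes and a median rank of 2040. The highest-ranked were ruvb-2, a helicase-like chromatin ATPase, at rank 161 (141 in replicate 1 and 234 in replicate 2), spas-1, the spastin homologue that severs microtubules, at rank 237 (216 and 310), nsf-1, which takes apart membrane fusion complexes, at rank 349 (457 and 309), and vps-4, which acts on ESCRT filaments, at rank 496 (379 and 775). The gene cdc-48.1 was at rank 1 in each list, against a highest rank of 141 for any of the 16 in any list. Because cdc-48.1 was chosen for holding the strongest peak, its place above these genes was fixed in advance. With a window of 250 bp the count was 5. Neither the counts nor the medians of these 3 lists were tested against other genes. The 17.0% belongs to optimal summits within 500 bp of any 5′ end, and not to the counts at other settings.

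**Figure D4:**
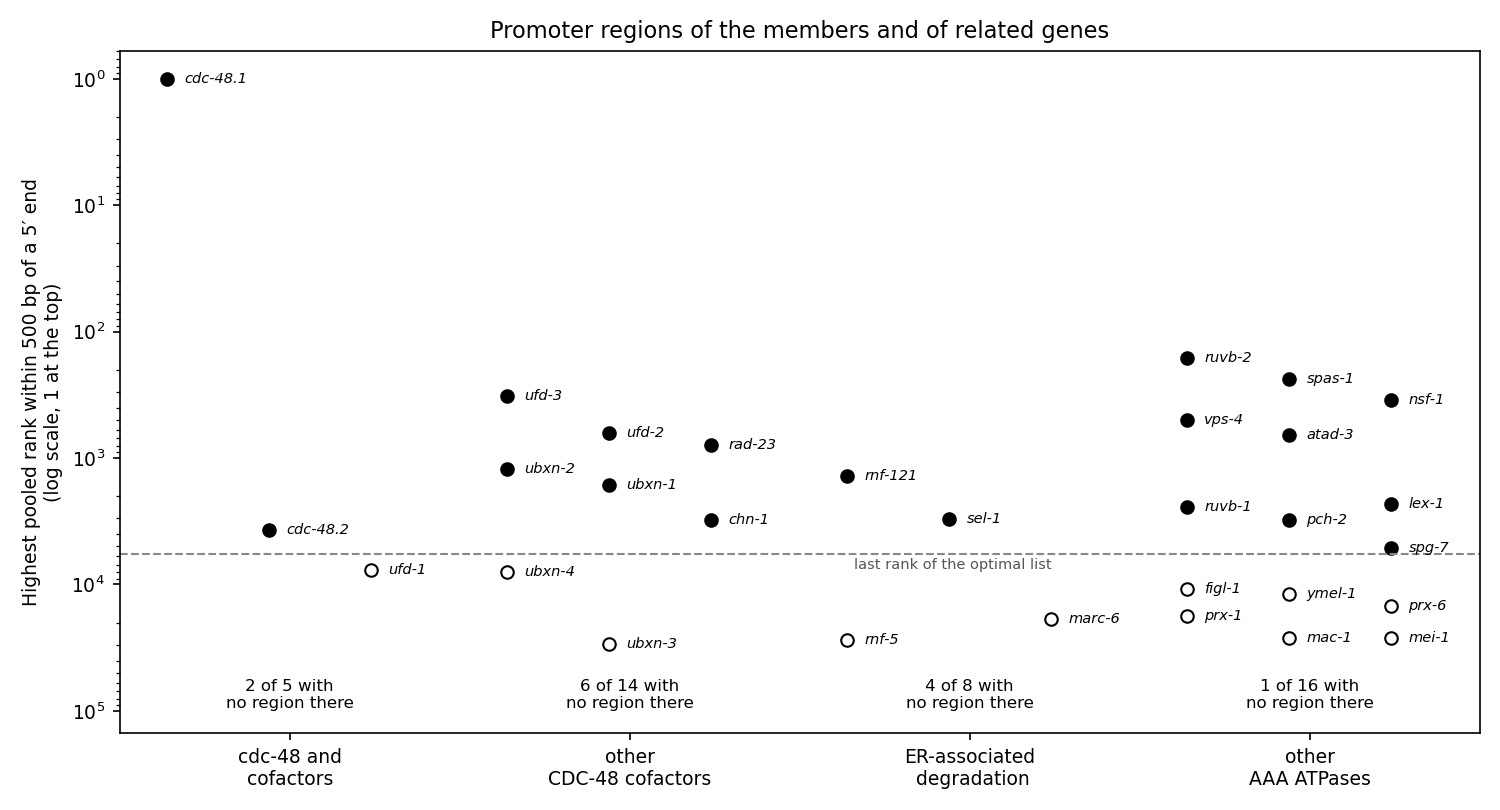
Highest pooled rank (log scale, 1 at the top) within 500 bp of a 5′ end for the 5 genes described and for 3 lists of related genes. Filled circles are optimal peaks, open circles are pooled regions below the dashed line at the last rank of the optimal list, and the counts at the bottom are genes with no region there. The point at rank 1 is cdc-48.1, which was chosen for holding the strongest peak, and the next highest of all the genes drawn is ruvb-2 at rank 161.

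The peaks most like that of cdc-48.1 were those with a rank of 20 or better in the pooled list and a matched summit of rank 20 or better in both replicates. There were 12, of which 8 had a coding 5′ end within 500 bp. Beside cdc-48.1 these lay at rpl-3, at Y17G9B.5 with rpl-20, at tasp-1, his-37, iff-2, eef-1A.2 and eelo-2. Of these, rpl-3 ranked 3 in both replicates and tasp-1 ranked 5 in both, and among the 8 these and cdc-48.1 held the same rank in both lists.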

How the data were processed

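The data are narrowPeak lists in the ce11 build. Per the deposited file listing, the authors called peaks and background on each replicate and on both together with a control, and thresholded by IDR. No aligner, caller or version was named in the labels or listings read. The deposited signal is relative to a control and was compared inside each list alone. Every optimal peak holds the ceiling of the authors' −log10 q-values, so ranks use signal. The optimal list is exactly the highest-signal 19.0% of the pooled list. Depth is unknown.

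Summits are 1-based. Genes are from Ensembl release 115, sequence from RefSeq WBcel235. The ce10 lists were not used. Members, gene lists and motifs were chosen with earlier results of these data known. No test was run, since there is 1 group and the members were chosen by their peaks. Named genes are the members, their neighbours, up to 4 genes per list by rank, and genes most like cdc-48.1; further list members were named after their values were seen. In the ER list 3 of 11 names had no match. The k-mer counts (both strands) were chosen after seeing the data, and were tested, with the peak assignment, on simulated data. Alignments used biopython 1.88, without end gap penalties. Python 3.11.15, numpy 2.4.6, pandas 2.3.3 and matplotlib 3.10.9 were used.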

Additional observations from a re-analysis of the deposited data

How the results depend on the processing

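The cdc-48.1 summit had rank 1 under every alternative run. These runs re-read the same lists, and the gene was chosen for holding the strongest peak, so they are no independent check. The count of 2 members with an optimal summit was 1 (cdc-48.1) among the 2846 strongest peaks, by either window, and 1 within 250 bp. It was 3, with ufd-1, at 5000 bp upstream, and was 2 with either replicate left out. The shares of all coding genes given above belong to the main settings, so nothing is read from these changes. The peak that added ufd-1 was not its weaker region but another one, of rank 4789 at 12335455, inside F19B6.1. The highest cdc-48.2 rank ranged from 3069 to 3782 and the ufd-1 rank from 7643 to 8463 when a replicate was left out. The count of ER-associated degradation genes was 4 within 1000 bp, 1 among the strongest 2846 peaks, 1 with the nearest 5′ end only and from 1 to 2 without a replicate. The count of other AAA ATPases was 5 within 250 bp. Counts of other cofactors ran from 4 to 8. With the nearest 5′ end only, the genes lost were rad-23 and ubxn-1 among these cofactors and rnf-121 in the ER list. The counts of the 3 gene lists at changed settings likewise have no matching share of all coding genes, and nothing is read from them. With 50-mers, a length chosen after seeing the data, the share upstream of the npl-4 genes was 7.0%, against 3.4% with 32-mers. No paired analysis was possible because there is 1 group. The lists carry no counts, so weak regions such as that at ufd-1 cannot be given an error.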
